A study of Mus musculus with 5 samples.

Results

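The S100 genes were followed through single-cell transcriptomes of mouse bone marrow. The 7 members described are S100a4, S100a6, S100a8, S100a9, S100a10, S100a11 and S100a13, chosen by name from the 14 S100 rows of a table with 15287 genes. All mice carried Fgd5CreERT2/+ and Rosa26Tomato/+ alleles, were 20 weeks old and had received no treatment. Lin-CD45.2+c-kit+ marrow cells (Lin-kit+) gave 3 libraries, called a, b and c. Cells of that phenotype that were also positive for ZsGreen, a reporter driven from the Fgd5 locus that marks hematopoietic stem cells (HSCs), gave 1 library (Fgd5+), and reporter-positive cells gated further as Sca1+CD150+CD48- gave another (HSC-Fgd5+).

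The table names each cell by a barcode with 1 of 5 suffixes, and the suffixes were matched to the populations by the study's cell numbers, on which every comparison of populations rests. The title and the source of the reporter-positive samples disagree on which of them had the HSC gate. The Lin-kit+ libraries held 1339 to 6147 cells and 10000606 to 36080242 UMIs (unique molecular identifiers, each counting 1 captured transcript). The Fgd5+ library held 793 cells with 4168367 UMIs and the HSC-Fgd5+ library 519 cells with 2166655. The number of mice is not stated, so n counts libraries and p-values measure only the spread between libraries, which may be technical. The reporter-positive libraries also differ in gate and are not replicates of 1 sort, so their spread includes the gate. As a check of the sort, Kit, Ly6a and Slamf1 were higher and Cd48 lower in reporter-positive cells. Slamf1, which encodes CD150, was at 2.46 ± 0.797 UMIs per 1000000 (CPM, SD, n = 3) in Lin-kit+ and averaged 37.0 in the reporter-positive libraries, and Cd48 was at 192 ± 5.98 and 4.04. There were 62 barcodes found in more than 1 library.

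S100 proteins are small EF-hand proteins that bind calcium and then change shape to hold on to partner proteins. S100A8 and S100A9 pair into calprotectin, which fills the cytosol of neutrophils, chelates zinc and manganese, and acts as an alarm signal through TLR4 once released. S100A10 binds annexin A2 and is unusual in having lost calcium binding, S100A11 binds annexin A1, S100A6 (calcyclin) binds annexins and the calcyclin-binding protein CACYBP, S100A4 binds non-muscle myosin IIA, and S100A13 takes part in the release of FGF1 and interleukin-1 alpha.

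All 7 members lie on chromosome 3 (GRCm38, GENCODE vM21). S100a13 (chr3:90514435-90524581), S100a4 (chr3:90603771-90606045), S100a6 (chr3:90612882-90624181), S100a8 (chr3:90668978-90670035) and S100a9 (chr3:90692632-90695721) fall in a stretch of 185 kb with 12 S100 genes. S100a11 (chr3:93520488-93526287) and S100a10 (chr3:93555080-93564643) lie 2.82 Mb further on, next to each other. S100a8 and S100a9 face each other with their 3′ ends, 22.6 kb apart, and S100a13 and S100a1 face away from each other with 42 bases between their starts.

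Promoter windows (250 bases before the start to 50 after it, RefSeq, GRCm38.p6) were found for 6 members, all but S100a10. They were searched on both strands for the TATA box with letters TATAAA, the GC box with letters GGGCGG, the C/EBP letters TTGCNNAA, the ETS letters GAGGAAG and the AP-1 letters TGANTCA, and no 2 matches overlapped. Shown are the calprotectin pair, S100a4, whose level also differed widely between cell classes, and S100a13, whose level differed least. Capitals mark every match, and positions are counted from 1 at the 5′ end of the window.

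S100a8 (chr3:90668821-90669120, + strand): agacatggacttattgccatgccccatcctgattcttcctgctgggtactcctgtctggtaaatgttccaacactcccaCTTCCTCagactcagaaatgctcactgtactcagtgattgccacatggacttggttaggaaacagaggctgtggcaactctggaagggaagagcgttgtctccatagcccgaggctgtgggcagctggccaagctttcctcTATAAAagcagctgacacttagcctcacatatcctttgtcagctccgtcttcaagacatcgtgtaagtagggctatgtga
S100a9 (chr3:90695672-90695971, - strand): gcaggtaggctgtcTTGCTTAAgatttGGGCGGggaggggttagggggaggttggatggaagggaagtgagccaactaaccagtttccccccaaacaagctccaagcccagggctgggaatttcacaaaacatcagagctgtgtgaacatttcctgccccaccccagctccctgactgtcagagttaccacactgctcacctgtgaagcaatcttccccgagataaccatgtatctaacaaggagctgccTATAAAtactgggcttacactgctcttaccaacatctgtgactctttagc
S100a4 (chr3:90603520-90603819, + strand): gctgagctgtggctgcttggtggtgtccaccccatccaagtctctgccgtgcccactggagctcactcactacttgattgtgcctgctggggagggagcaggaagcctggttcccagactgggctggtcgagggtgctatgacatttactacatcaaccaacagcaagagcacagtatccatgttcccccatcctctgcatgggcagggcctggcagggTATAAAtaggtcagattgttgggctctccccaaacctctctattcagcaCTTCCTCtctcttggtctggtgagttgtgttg
S100a13 (chr3:90514185-90514484, + strand): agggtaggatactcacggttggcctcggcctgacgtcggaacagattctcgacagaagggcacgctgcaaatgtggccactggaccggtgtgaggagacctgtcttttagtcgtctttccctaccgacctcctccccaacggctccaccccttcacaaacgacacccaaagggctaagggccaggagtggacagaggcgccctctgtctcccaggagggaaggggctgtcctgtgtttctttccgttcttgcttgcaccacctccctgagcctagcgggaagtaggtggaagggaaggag

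TATAAA was present in the windows of S100a4 (bases 220 to 225), S100a8 (221 to 226) and S100a9 (251 to 256), and in 13.6% of all 32851 windows. The match lay before the start in S100a4 and S100a8 but began at the annotated start base itself in S100a9. S100a9 also held TTGCTTAA, a C/EBP match (bases 15 to 22, 10.8% of all windows), and a GC box (28 to 33). The ETS letters (13.6% of windows) were found reversed in S100a8 (80 to 86) and S100a4 (269 to 275). S100a11 held 3 GC boxes (35.7% of windows) and 2 AP-1 matches (7.81%), and S100a6 and S100a13 held none of these letters. CG pairs numbered 14 in S100a13 and 15 in S100a11 but 2 in S100a4, 4 in S100a8 and 2 in S100a9, beside a median of 7 over all windows.

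The first comparison asked how the members differ between reporter-positive cells and the broad Lin-kit+ population. Calprotectin transcripts were abundant in Lin-kit+ libraries and close to absent from reporter-positive ones. S100a8 was at 26533, 31896 and 32624 CPM in Lin-kit+ a, b and c, at 530 in Fgd5+ and at 1.85 (95% Poisson interval 0.503 to 4.73) in HSC-Fgd5+. S100a9 was at 16397, 17311 and 17155 CPM, against 283 and 3.23. Together the pair made up 4.29%, 4.92% and 4.98% of all UMIs of the Lin-kit+ libraries, 0.0813% of the Fgd5+ and 0.000508% of the HSC-Fgd5+ library. Intervals given here and below cover counting error only.

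A single cell carried almost all of the Fgd5+ value. It held 2178 of the 2208 S100a8 UMIs and 1170 of the 1180 S100a9 UMIs of that library, the pair making up 35.7% of its transcripts. With 143 Ltf, 790 Ngp, 622 Camp and 101 Lcn2 UMIs, all granule genes of maturing neutrophils, it lay in a neutrophil-like cluster. Without it S100a8 was at 7.21 CPM (4.87 to 10.3) and S100a9 at 2.40 (1.15 to 4.42) in Fgd5+. Of 793 Fgd5+ cells 20 had any S100a8 UMI (2.52%, Wilson interval 1.64 to 3.86), as had 4 of 519 HSC-Fgd5+ cells (0.771%, 0.300 to 1.96).

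S100a10 and S100a11, whose proteins bind annexins A2 and A1, were lower in reporter-positive cells, with groups that did not overlap. S100a10 was at 357, 327 and 344 CPM in Lin-kit+ a, b and c, and at 213 and 205 in Fgd5+ and HSC-Fgd5+. S100a11 was at 726, 746 and 739 against 303 and 322. The 3 remaining members were higher in CPM in both reporter-positive libraries than in any Lin-kit+ library. Scaled to library totals, the median gene tested was also higher in reporter-positive cells, by 0.60 on the log2 scale, and none of the 3 exceeded it. The share of all genes whose groups did not overlap was not counted. S100a6 was at 85.5, 89.3 and 88.4 CPM against 127 and 137, S100a4 at 29.1, 26.3 and 25.7 against 31.9 and 33.7, and S100a13 at 160, 148 and 140 against 174 and 163.

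**Figure D1:**
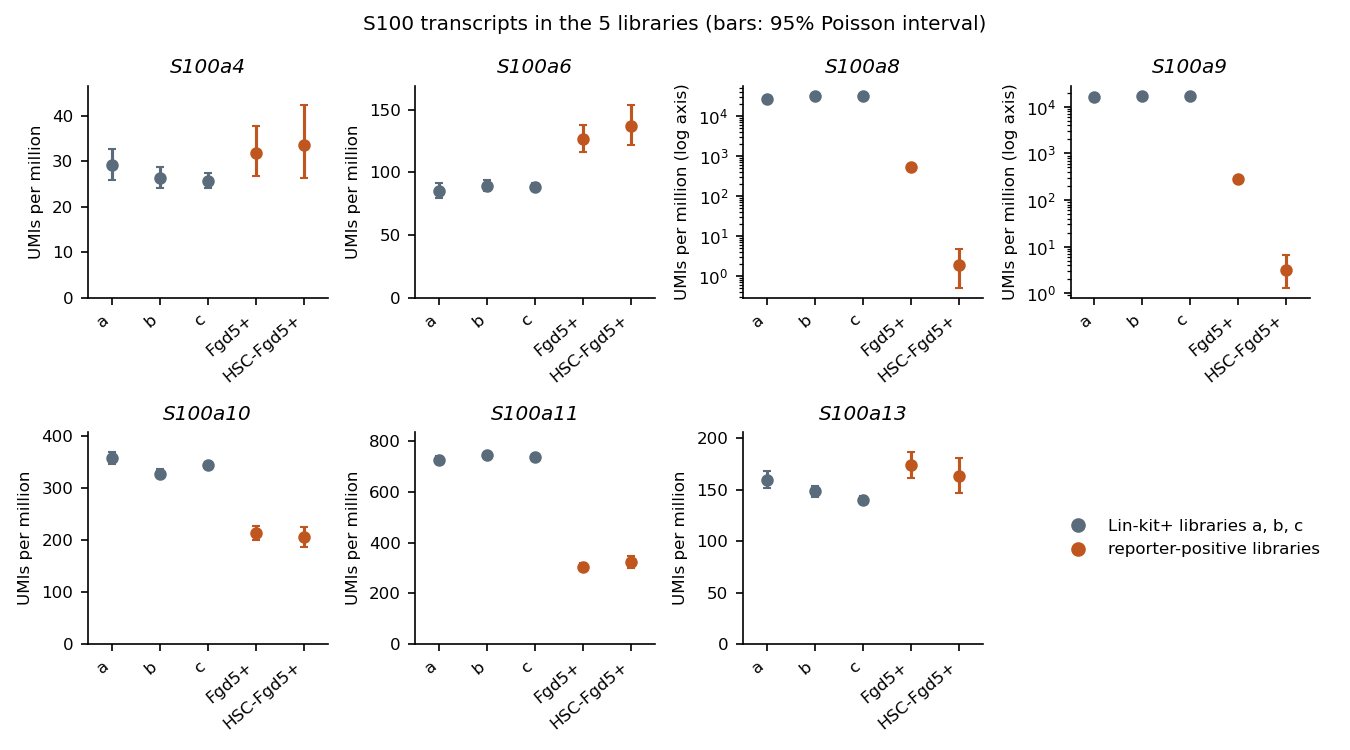
Level of each member in the 5 libraries, in CPM, on a log axis for S100a8 and S100a9 and a linear axis from 0 for the others, with 95% Poisson intervals. S100a8 is at 26533 or more in the Lin-kit+ libraries and at 1.85 in HSC-Fgd5+, S100a10 and S100a11 are lower in both reporter-positive libraries, and S100a4, S100a6 and S100a13 are slightly higher on this scale.

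UMIs summed per library were tested with edgeR's quasi-likelihood test and TMM scaling, 2 reporter-positive against 3 Lin-kit+ libraries, with Benjamini-Hochberg adjustment over 11991 genes. Of the 7 members, 5 were lower in reporter-positive cells, where 30.4% of all genes tested were lower (63.1% in either direction), and none was higher, where 32.7% of all genes were. Summed counts cannot tell fewer cells of a type from less RNA per cell. S100a11 fell by 1.78 on the log2 scale (SE 0.0691, adjusted p = 3.56e-06) and S100a10 fell by 1.25 (SE 0.0753, adjusted p = 1.48e-05). S100a8 fell by 7.33 (SE 1.64, adjusted p = 0.00649) and S100a9 fell by 7.37 (SE 1.39, adjusted p = 0.00301). Left without the single neutrophil-like Fgd5+ cell, S100a8 fell by 13.03 and S100a9 by 13.15 in the edgeR fit. That cell was picked as the one highest in S100a8, and no cell was taken out of the Lin-kit+ libraries. These changes are therefore a description, and no p-value is given for them.

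The direction of the other members depended on the scaling. TMM, which sets most genes to be equal, and library totals, which set all UMIs to be equal, differ by 0.54 (log2) for the median gene here. S100a13 was at −0.36 with TMM (SE 0.0896, adjusted p = 0.0102) but at 0.18 with library totals (adjusted p = 0.103). S100a4 was at −0.26 (adjusted p = 0.0758) but at 0.28 with totals (adjusted p = 0.0555). S100a6 was at 0.05 with TMM (adjusted p = 0.608), while with totals it was higher in reporter-positive cells by 0.59 (adjusted p = 0.00049). Under both scalings S100a6 was close to the median gene, which was at 0.07 with TMM and 0.60 with totals. S100a8, S100a9, S100a10 and S100a11 were lower under both.

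**Figure D2:**
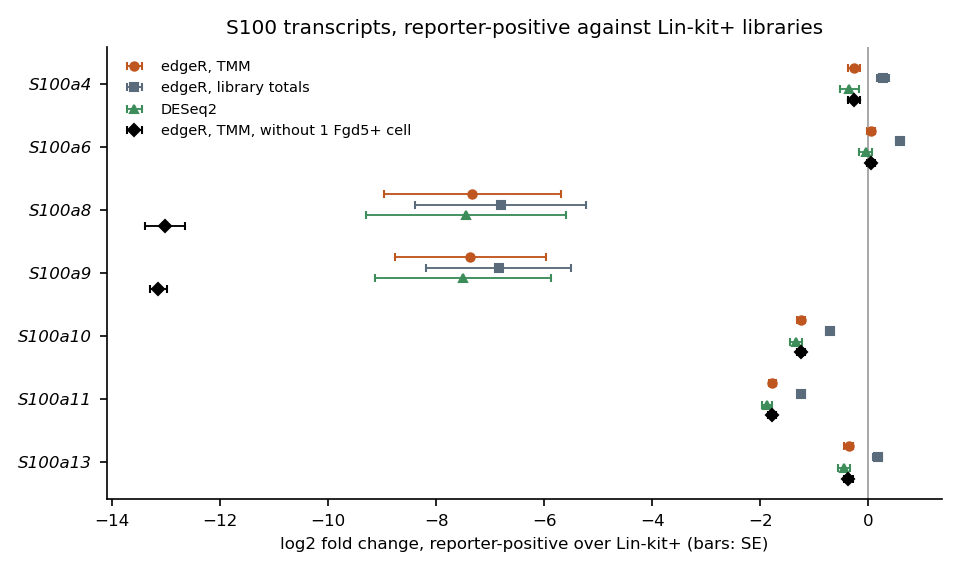
Fitted log2 fold change of each member, reporter-positive over Lin-kit+, with SE, under edgeR with TMM, edgeR with library totals, DESeq2, and edgeR with TMM without 1 Fgd5+ cell. S100a4 and S100a13 lie left of 0 with TMM and right of it with library totals, and the single cell moves S100a8 from −7.33 to −13.03.

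Of the other 7 family rows only S100a1, a cardiac and neuronal calcium sensor, was abundant, with 8883 UMIs in all. It was at 122 to 128 CPM in Lin-kit+ and at 119 and 104 in Fgd5+ and HSC-Fgd5+, and fell by 0.70 in the edgeR test (adjusted p = 0.000432), but was at −0.17 with library totals (adjusted p = 0.120). The others had 6 to 26 UMIs each over the 5 libraries. S100a5, with 26, was at 0.161 to 0.300 CPM in Lin-kit+ and 1.92 and 1.38 in the reporter-positive libraries, higher by 2.33 (adjusted p = 0.00439). S100a16 had 10 UMIs, none of them in a Lin-kit+ library.

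Partners of the S100 proteins were taken from 5 lists. Their counts are to be read beside the 30.4% of all genes that were lower with TMM. With library totals 6586 of the 11991 genes tested were higher and 1993 lower, which the counts with that scaling are to be read beside. All 6 NADPH oxidase genes, whose enzyme complex calprotectin helps to assemble, were lower in reporter-positive cells, with a median log2 change of −3.80 beside 0.07 over all genes tested, and all 6 were also lower with library totals. Cybb, the catalytic subunit, went from 99.9 ± 3.02 CPM in Lin-kit+ to 1.19 and fell by 6.67 (SE 0.247, adjusted p = 3.03e-06). Of 5 annexins 3 were lower and 2 did not pass the test, while with library totals 2 were lower and 1, Anxa5, higher. Anxa2, the partner of S100A10, fell by 3.39 (SE 0.136, adjusted p = 3.83e-06), and Anxa1, the partner of S100A11, fell by 2.99 (SE 0.134, adjusted p = 5.37e-06). Anxa5 was at 0.01 with TMM in the edgeR test (adjusted p = 0.930) and at 0.55 with library totals (adjusted p = 0.00117). Anxa6, the remaining annexin that was lower with TMM, overlapped between the groups in CPM (43.2 to 45.5 in Lin-kit+, 40.8 and 43.4 in reporter-positive) and was at −0.08 with library totals (adjusted p = 0.438).

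All 6 cytoskeletal and scaffold genes were lower with TMM, with a median of −0.89, and 5 of them with library totals, with a median of −0.35. Among them Myh9, the heavy chain of the myosin that S100A4 binds, fell by 0.67 (SE 0.1004, adjusted p = 0.001) with TMM but was at −0.13 with library totals (adjusted p = 0.296), and its CPM overlapped between the groups. Ahnak, a scaffold of the S100A10 and annexin A2 complex, fell by 1.55 in the edgeR test (SE 0.227, adjusted p = 0.000888). Of 5 other intracellular partners tested 3 were lower with TMM, while with library totals 1 was lower and 3 were higher. Cacybp, lower under both, fell by 1.27 with TMM (SE 0.0762, adjusted p = 1.47e-05, edgeR). Trp53 was at −0.30 with TMM and 0.24 with totals, Stip1 at −0.50 and 0.04, and Sugt1 at −0.21 and 0.32. Of 4 receptors tested 2 were lower in the edgeR test, Cd14 at −2.76 (adjusted p = 0.000981) and Bsg at −0.28 (adjusted p = 0.044), and Bsg was at 0.26 with library totals (adjusted p = 0.0478), where 1 receptor was lower and 3 were higher. Tlr4, at 1.99 ± 0.259 CPM in Lin-kit+ and 4.25 in reporter-positive cells, did not pass with TMM (0.62, adjusted p = 0.110, edgeR) and was at 1.15 with library totals (adjusted p = 0.0111).

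To place the members among progenitors, Lin-kit+ cells were clustered without the 14 S100 rows and without Fgd5, and clusters were named by marker lists. There were 9 classes with at least 10 cells in each Lin-kit+ library, and they covered 9170 of 11581 cells (79.2%). Classes were made from the same cells, so the levels are a description with no test, given as the mean and SD over libraries a, b and c. The HSC-like class, with 46 cells, was the smallest and the megakaryocyte-like class, with 374, the next. Kit transcripts were lowest in late neutrophil-like cells, at 8.37 ± 2.16 CPM with a UMI in 4.79% of cells. Monocyte-like cells were at 10.6 ± 1.28 and early neutrophil-like cells at 30.5 ± 4.27.

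S100a8 and S100a9 were higher in each cluster of the neutrophil series, ordered from primary to secondary granule genes. In the early neutrophil-like cluster, marked by Elane, Mpo, Prtn3 and Ctsg, S100a8 was at 14872, 14142 and 15862 CPM in a, b and c and S100a9 at 4914, 3483 and 3821. An unnamed cluster with primary granule genes and Fcnb had S100a8 at 70139 ± 3995 and S100a9 at 35356 ± 1596. The 2 late neutrophil-like clusters followed, of which the first matched the intermediate list with as many markers (6 and 6). One was led by Fcnb and Camp (S100a8 125480 ± 4138, S100a9 72477 ± 8827) and the other by Ltf and Lcn2 (189384 ± 5715 and 113165 ± 6930), where the pair made up 30.3% of all UMIs.

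The ratio of the pair was not constant. S100a8 exceeded S100a9 by 3.75 ± 0.625 times in the early neutrophil-like cluster, 1.99 ± 0.156 in the unnamed cluster, and 1.74 ± 0.157 and 1.68 ± 0.146 in the clusters led by Fcnb and by Ltf. From the early to the Ltf-led cluster S100a8 was 12.7 times and S100a9 27.8 times higher, with ranges that did not overlap. The median early neutrophil-like cell had 52 S100a8 UMIs but 4 of S100a9, and the lower and upper quartiles were 13 and 138 for S100a8 and 1 and 26 for S100a9. In the Ltf-led cluster the median was 935 and 539. Scrublet called 9.18% of cells of the Fcnb-led cluster doublets, against 1.19% of all cells. Levels without doublets were taken for the whole late neutrophil-like class and not for this cluster alone. In that class S100a8 was at 166282 CPM without doublets and 161344 with them.

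**Figure D3:**
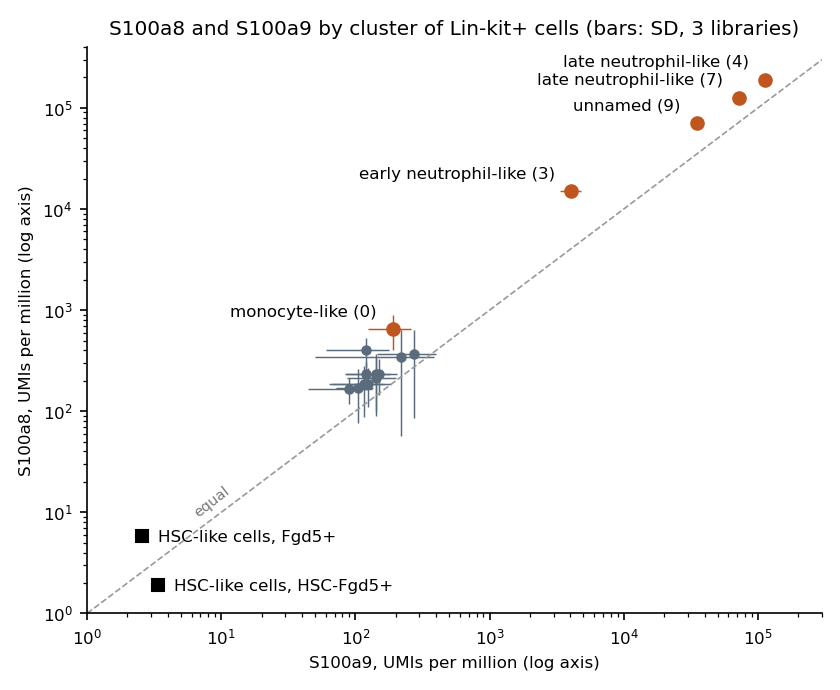
Mean S100a8 against mean S100a9 per cluster of Lin-kit+ cells, in CPM on log axes, with the SD over 3 libraries, and HSC-like cells of the reporter-positive libraries as squares. The neutrophil clusters form a line from the early cluster (14959 and 4073) to the Ltf-led cluster (189384 and 113165), and the squares lie far below all Lin-kit+ clusters.

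Outside the neutrophil classes both transcripts were far lower. S100a8 was at 188 ± 78.5 CPM in megakaryocyte-like, 194 ± 110 in lymphoid-primed multipotent-like, 198 ± 84.8 in erythroid-like and 236 ± 92.8 in dendritic-like cells, with ranges that overlapped. Mast or basophil-like cells ranged from 133 to 671. A UMI of S100a8 was found in 54.6% of erythroid-like cells, which should lack the gene, and in 55.3% of dendritic-like cells, at median depths of 3016 and 2981 UMIs. Thinned to 1000 UMIs, the shares were 20.1% to 26.1% in the 7 classes other than neutrophils. The neutrophil granule gene Camp had 37.9 ± 7.37 UMIs per 100 of S100a8 in erythroid-like cells, 36.6 ± 5.89 in megakaryocyte-like cells, 27.7 ± 8.08 in dendritic-like cells and 35.3 ± 0.978 in late neutrophil-like cells, but 1.26 ± 0.236 in early neutrophil-like cells. No share in empty droplets was measured, and since the share in dendritic-like cells is close to that in erythroid-like cells, neither is read as expression.

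In S100a8 the monocyte-like class was above the megakaryocyte-like, lymphoid-primed, erythroid-like and dendritic-like classes without overlap. It overlapped the mast or basophil-like (133 to 671 CPM) and HSC-like classes (60.9 to 508). Its S100a8 was at 722, 371 and 494 CPM, with 3.01 ± 0.284 S100a8 per S100a9 and 14.001 ± 8.42 Camp UMIs per 100 of S100a8. Most of this came from the monocyte-like cluster led by Trem2 and Klf4 (646 ± 242 CPM), while the other, led by Lgmn and Cnn3, was at 185 ± 97.6. Of the 6679 S100a8 UMIs of the first cluster 726 were in 1 cell, and the median cell had 1. An unnamed cluster led by F13a1 was at 401 ± 128 with a ratio of 3.603 ± 0.750.

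S100a8 in HSC-like cells differed between the sorts. In Lin-kit+ a, b and c S100a8 was at 60.9, 454 and 508 CPM in HSC-like cells, resting on 38 UMIs in 46 cells. Erythroid-like cells of the same libraries, which should lack the gene, were at 109, 205 and 279, so HSC-like cells were below them in a and above them in b and c. The thinned share of cells with a UMI was 26.1% (15.6 to 40.3) in HSC-like and 23.5% (21.1 to 26.1) in erythroid-like cells, and it is not read as expression. In the HSC-like clusters of the reporter-positive libraries it was at 5.86 (3.71 to 8.79) and 1.91 (0.521 to 4.90). S100a6 in the same cells was at 81.2, 142 and 107 against 127 and 137, S100a10 at 325, 199 and 241 against 210 and 205, and S100a11 at 243, 369 and 454 against 303 and 323. For these 3 members the ranges of HSC-like cells overlapped between the sorts. A test of this contrast needed 20 HSC-like cells in each Lin-kit+ library, and with 11, 19 and 16 it was not run.

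S100a4 and S100a6 followed each other over the 9 classes, with a Pearson correlation of log2(CPM + 1) of 0.90. Both were highest in dendritic-like cells, marked by Cd74, H2-Aa and Clec9a. There S100a4 was at 257, 301 and 274 CPM and S100a6 at 831, 906 and 793. Monocyte-like cells came next, at 70.9 ± 6.97 and 207 ± 12.1, without overlap. HSC-like cells followed, at 27.8 ± 28.4 for S100a4, which rests on 3 UMIs, and 110 ± 30.5 for S100a6.

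Erythroid-like and early neutrophil-like cells were nearly free of both. S100a4 had 3 UMIs in 1098 erythroid-like cells and 5 in 1160 early neutrophil-like cells. S100a6 had 23 and 13. The more mature erythroid-like cluster, with Hba-a1 and Tfrc, had no UMI of either in 287 cells. Along the neutrophil clusters S100a6 was at 1.89 ± 1.58 in the early, 1.37 ± 1.54 in the unnamed, 15.1 ± 6.66 in the Fcnb-led and 72.3 ± 22.1 in the Ltf-led cluster, while S100a4 stayed at or below 1.65 CPM in all 4. Within the monocyte branch the unnamed F13a1-led cluster had S100a4 at 6.48 ± 2.54 and S100a6 at 25.02 ± 2.81, and the Trem2-led cluster was 12.3 and 9.83 times higher.

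S100a10 was lowest in the neutrophil classes, where S100a11 was highest, and both were high in dendritic-like cells. S100a10 was highest in dendritic-like cells (1294, 1189 and 1200 CPM), followed by erythroid-like (689 ± 40.2), monocyte-like (674 ± 19.2) and mast or basophil-like cells (534 ± 104), whose ranges overlapped in turn. It was lowest in early (18.9 ± 5.97) and late neutrophil-like cells (15.8 ± 13.4). S100a11 was highest in late (1640, 1537 and 1467 CPM) and early neutrophil-like cells (1380, 1302 and 1285), without overlap, then in dendritic-like cells (847 ± 6.79), and lowest in megakaryocyte-like (160 ± 23.0) and erythroid-like cells (143 ± 7.97). Over the 9 classes S100a10 correlated with S100a8 at −0.92 and with S100a11 at −0.65, and S100a11 with S100a8 at 0.80, all from values of the same libraries. The correlations with S100a8 mainly set the neutrophil classes apart from all others, where mean S100a8 was only 188 to 529 CPM.

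**Figure D4:**
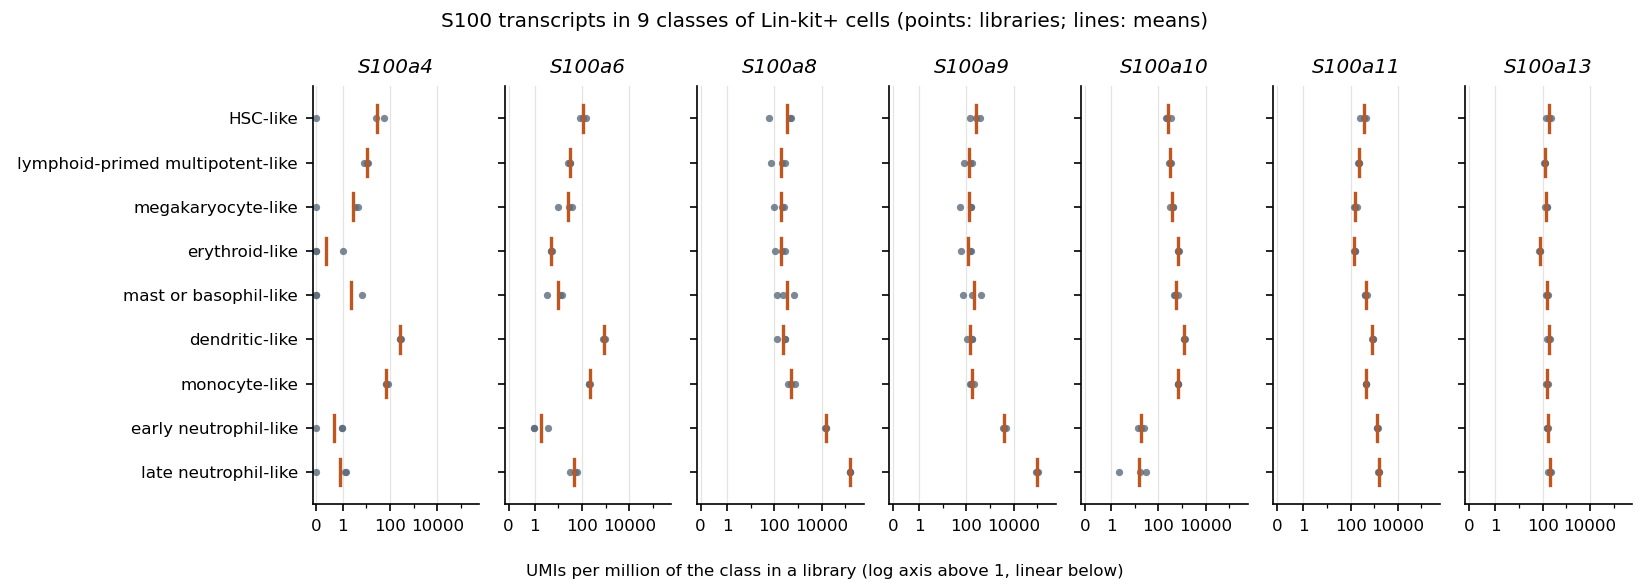
Level of each member in 9 marker-defined classes of Lin-kit+ cells, in CPM on an axis that is logarithmic above 1 and linear below, with 1 point per library and a line at the mean. S100a8 and S100a9 peak in neutrophil-like classes, where S100a10 is lowest, S100a4 and S100a6 peak in dendritic-like cells, and S100a13 is nearly level.

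The 2 erythroid-like clusters differed in S100a10, S100a11 and S100a13. The cluster with Klf1 and Gata1 and no globin marker had S100a10 at 920, 1053 and 1089 CPM, and the more mature one 247, 309 and 369. S100a11 was at 215 ± 29.1 and 62.2 ± 24.4, and S100a13 at 111 ± 7.05 and 33.8 ± 5.36. The less mature cluster was thus 3.31, 3.46 and 3.28 times higher, and no ranges overlapped.

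S100a13 was the most even member. Its highest class, late neutrophil-like cells (196 ± 23.0 CPM), was 2.59 times its lowest, erythroid-like cells (75.6 ± 6.03), and ranges of neighbouring classes overlapped from rank 1 to rank 7. The same ratio was 10.8 for S100a11, 77.8 for S100a10, 445 for S100a6 and 859 for S100a8, whose lowest class is at the level of cells that should lack it. It was 780 for S100a4, whose lowest class rests on 3 UMIs. Since S100a8 and S100a9 made up 25.7% of UMIs in late neutrophil-like cells, they lowered the other members there. With both left out of the total S100a13 was at 264 and S100a11 at 2083 in that class. S100a1, whose start lies next to that of S100a13, was at 200, 214 and 209 CPM in early neutrophil-like cells but at 11.03, 23.6 and 19.2 in dendritic-like cells.

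Among 10155 genes, those with a pattern over the 9 classes most like each member were found by Pearson correlation. For S100a8 these were Abca13, Acpp and Lrg1 (each 0.99), and for S100a9 Lin28a, 4930438A08Rik and S100a8 (each 0.99). For S100a4 they were Irf5, Psap and Ppfia4 (each 0.98), and for S100a6 S100a4, Psap and Cmtr1 (0.90, 0.90 and 0.89). For S100a10 they were Commd4, 1810043G02Rik and Cryl1 (each 0.95), for S100a11 Tmbim6, Plin3 and Cyba (0.94, 0.94 and 0.93), and for S100a13 Cpne3, Lpgat1 and Ugp2 (0.92, 0.90 and 0.87). Abca13, Acpp, Lin28a and Cmtr1 had 225, 140, 158 and 161 UMIs in the Lin-kit+ libraries.

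The reporter-positive libraries resembled each other in most members. For S100a4, S100a6, S100a10, S100a11 and S100a13 the Poisson intervals of Fgd5+ and HSC-Fgd5+ overlapped, for example 116 to 138 and 122 to 154 for S100a6. With 1 library per gate no test was made. A UMI of S100a6 was found in 39.8% of Fgd5+ and 35.1% of HSC-Fgd5+ cells, and in 18.7% to 22.1% of Lin-kit+ cells. Thinned to 1000 UMIs the shares were 12.9%, 9.78% and 6.80% to 7.85%. For S100a11 the thinned shares were 27.2% and 26.6% against 43.7% to 46.0%.

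Dividing cells were set beside other cells, a dividing cell being one with at least 10 UMIs of 15 mitosis genes per 10000. This cut takes a range of a score and is no cell type, and 10 Fgd5+ and 11 HSC-Fgd5+ cells lay within 20% of it. In Fgd5+ cells S100a10 was at 257 CPM (219 to 300) in 61 dividing and 205 (191 to 221) in 732 other cells, and in HSC-Fgd5+ cells at 287 (233 to 350) in 44 and 189 (170 to 210) in 475. The intervals overlapped slightly in Fgd5+ and not in HSC-Fgd5+. S100a6 went the other way, at 97.3 (74.4 to 125) and 132 (120 to 144) in Fgd5+ and at 119 (85.4 to 161) and 141 (124 to 159) in HSC-Fgd5+, where the intervals overlapped in both.

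Classes of Lin-kit+ cells differed in this contrast. In erythroid-like cells S100a10 was at 269, 323 and 366 CPM in dividing cells of a, b and c and at 822, 924 and 919 in the others. In megakaryocyte-like cells it was at 381, 487 and 522 in dividing cells and at 232, 252 and 210 in the others. Dividing cells were thus lower in the first class and higher in the second, in each of 3 libraries. The erythroid-like class joins the 2 clusters above, of which the less mature held 5.06% dividing cells and the more mature 60.6%. Within them S100a10 was at 837 ± 189 in 41 dividing and 1033 ± 91.7 in 770 other cells of the less mature cluster, and at 274 ± 50.8 in 174 and 383 ± 87.2 in 113 of the more mature one, so the difference was far smaller within a cluster than over the class. S100a6 and S100a4 were higher in dividing monocyte-like cells (236 ± 14.2 against 165 ± 19.4 for S100a6) and lower in dividing dendritic-like cells (758 ± 79.1 against 977 ± 73.2). The monocyte-like class also joins 2 clusters, and S100a6 was 2.31 times and S100a4 1.72 times higher in the Trem2-led one. The monocyte-like contrast is not split by cluster here.

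**Figure D5:**
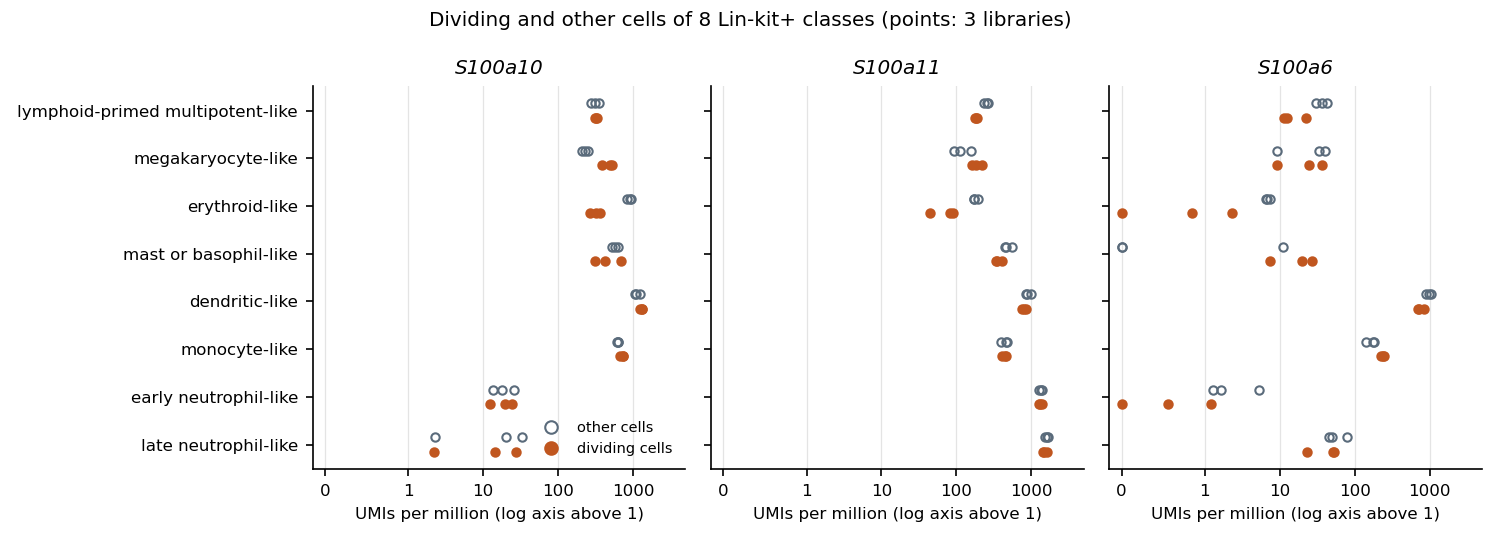
S100a10, S100a11 and S100a6 in dividing (filled) and other (open) cells of 8 Lin-kit+ classes, in CPM on an axis that is logarithmic above 1, with 1 point per library. S100a10 is lower in dividing erythroid-like cells (319 ± 48.7 against 888 ± 57.3), a class that joins 2 clusters with unequal shares of dividing cells, and higher in dividing megakaryocyte-like cells (463 ± 73.5 against 231 ± 21.3).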

How the data were processed

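Libraries were made with the 10x Genomics Chromium Single Cell 3′ v2 kit. The authors combined consecutive sequencing runs and deposited a single genes-by-cells table of raw UMI counts. Their processing notes name Cell Ranger 1.3 and 2.1, Seurat 2.3.4 and the mm10 genome. UMIs count molecules, so no length scaling was made. All 12893 deposited cells were kept, and doublets (Scrublet, scanpy 1.11.5) were removed as an alternative only.

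Levels are UMIs per 1000000 UMIs of the library or class (CPM). Clusters used 2000 variable genes, 20 components, 15 neighbours and Leiden (leidenalg 0.10.2) at resolution 1, and were named for 3 or more markers at a fold of 2 found in 5% of cells. Summed counts were tested with edgeR 4.0.16 (TMM, filterByExpr, quasi-likelihood, adjusted p under 0.05), tested on simulated data, with DESeq2 1.42.0 as an alternative. SE is the log2 change over the square root of F. Named were the members, the other family rows, the partner lists, sort markers and the 3 genes most like each member. Members and lists were chosen with earlier results of these data known. Alternatives covered scaling, filters, doublets, cell numbers, clustering, thinning and each library left out.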

Additional observations from a re-analysis of the deposited data

Results flagged for a closer look

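For each member, the log2 ratio of dividing over other cells had 1 sign in all 3 libraries of one class of Lin-kit+ cells and the opposite sign in all 3 of another, among classes with at least 10 dividing cells and 10 UMIs on each side. The share of all genes with such a pair of classes was not counted, so the pattern is not read as particular to the members. The difference between classes was not tested, and for each member the pair of classes that differ most is given.

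S100a10 was at 0.99 in megakaryocyte-like and −1.49 in erythroid-like cells, 2.48 apart. The erythroid-like class joins a cluster with 5.06% dividing cells and one with 60.6%, between which S100a10 differed 3.31 times, and within them the means of dividing and other cells were 837 and 1033 CPM and 274 and 383 CPM. At a cut of 20 mitosis UMIs per 10000 the erythroid-like value was −0.98, from 96 dividing cells, with as few as 7 in a library. S100a11 was at 0.67 in megakaryocyte-like and −0.44 in lymphoid-primed multipotent-like cells, 1.11 apart. The lymphoid-primed class joins clusters between which S100a11 differed 1.40 times, and its ratio is not split by cluster here. S100a6 was at 0.52 in monocyte-like and −0.37 in dendritic-like cells, 0.89 apart, and S100a4 at 0.50 and −0.21 in these classes, 0.71 apart. The monocyte-like class joins clusters between which S100a6 differed 2.31 times and S100a4 1.72 times, and its ratios are not split by cluster here. S100a13 was at 0.09 in mast or basophil-like and −0.33 in megakaryocyte-like cells, 0.42 apart.

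S100a9 was at 0.01 in late neutrophil-like and −0.42 in lymphoid-primed multipotent-like cells, 0.43 apart, and S100a8 at 0.03 in late neutrophil-like and −0.38 in erythroid-like cells, 0.41 apart. The late neutrophil-like values were close to 0 in each library, from 0.000601 to 0.0273 for S100a9 and from 0.0179 to 0.0605 for S100a8. In those 2 pairs the lower class holds S100a8 and S100a9 only at the level of cells that should lack them. At the cut of 20 the S100a8 value was 0.13 in erythroid-like cells, again from 96 dividing cells with as few as 7 in a library. It was 0.12 in late neutrophil-like cells, so that difference was lost.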

How the results depend on the processing

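The planned test against HSC-like Lin-kit+ cells and its 4 alternatives were not run, since a Lin-kit+ library held as few as 11 such cells. No paired analysis was possible because the labels give no replicate numbers shared between the populations. Of the 96 member fold changes under alternatives 86 kept their direction and side of the threshold, as did 413 of 444 for other named genes. Of 668 member levels by class under alternatives 593 moved by less than 1 SD. Those levels include means with 1 library left out, which by construction cannot move by as much as 1 SD.

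With library totals 6586 genes were higher and 1993 lower, against 3921 and 3646, and 1 member was higher. Among the members S100a4 was then at 0.28, S100a6 at 0.59 and S100a13 at 0.18, and among partners Anxa11 at 0.38, Bsg at 0.26, Sugt1 at 0.32, Trp53 at 0.24 and Stip1 at 0.0419. This scaling differs by construction in what it holds equal. With S100a8 and S100a9 left out 5 members remained, of which 3 were lower, the count falling by the 2 that were removed. Without the filter on low counts S100a4 was at −0.32 (adjusted p = 0.0428, edgeR), S100a6 at −0.0188 and Anxa5 at −0.056. DESeq2 gave −0.0474 for S100a6, −0.0831 for Anxa5 and −0.0199 for Ppp5c. With equal cell numbers S100a13 was at −0.26 (adjusted p = 0.0716, edgeR) and Ly96 at −0.0254. Anxa5 was at −0.00313 without doublets and −0.00863 without reporter-positive cells of other classes. The cause of these changes was not tested.

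With each library left out in turn S100a6 ranged from −0.0188 to 0.0806, Anxa5 from −0.0761 to 0.0804, Ppp5c from −0.0361 to 0.166, and S100a13 from −0.44 to −0.32, the last without HSC-Fgd5+ (adjusted p = 0.0504, edgeR), where 4 members were lower. S100a8 was at −14.56 without Fgd5+ and −6.38 without HSC-Fgd5+, and S100a9 at −12.92 and −6.45. A lone reporter-positive library is assumed to vary as the Lin-kit+ libraries do.

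S100a8 in late neutrophil-like cells was at 167723 CPM with S100 genes kept in the clustering, 188151 at resolution 0.5, 171045 at resolution 2, 171488 with 30 neighbours and 166282 without doublets, and S100a9 was at 112329 at resolution 0.5. With the pair out of the total S100a11 was at 2083 and S100a13 at 264 there, an alternative chosen after seeing the data, as were leaving out the pair from the test, leaving out the single Fgd5+ cell and splitting dividing cells by cluster. The highest class of S100a13 became HSC-like cells with S100 genes kept and at resolution 2. At a cut of 20 mitosis UMIs per 10000 the S100a11 log2 ratio in Lin-kit+ a was −0.00339. Depth limits S100a4 in HSC-like Lin-kit+ cells, where 3 UMIs were found.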
